A study of Gallus gallus with 54 samples.

Results

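Transporters that clear transmitters from the synapse, load them into vesicles or carry amino acids across membranes were followed in chick retina. The set held every gene symbol in the solute carrier families SLC1, SLC3, SLC6, SLC7, SLC17, SLC18, SLC32, SLC36 and SLC38, apart from the dopamine transporter SLC6A3, the monoamine transporter SLC18A2 and the acetylcholine transporter SLC18A3. It came to 51 of the 24599 gene names in the count table, and 45 of them passed the filter on low counts that left 15746 genes to test. The rule reads gene symbols only. The set includes SLC7A6OS, which matches by its name but is not a transporter and lies beside SLC7A6 on the opposite strand.

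RNA was sequenced from the retinas of male White Leghorn chicks in 54 libraries, with 7 conditions at 2 times. The 4 h retinas came from birds 7 days old and the 24 h retinas from birds 8 days old, and all birds had been raised for 6 days on 12 h of light and 12 h of dark. In form-deprivation myopia (FDM) a translucent diffuser over the eye blurs the image, which makes the eye elongate. In 4 drug conditions the diffuser was combined with an injection into the vitreous of atropine or pirenzepine, which block muscarinic acetylcholine receptors, of ADTN, a dopamine receptor agonist, or of TPMPA, which blocks GABA-C receptors. The 24 h drug birds were injected again 4 h before collection, so in drug groups time and repeat injection cannot be told apart. Recovery birds wore the diffuser for 3 days, and their retinas were collected 4 h or 24 h after its removal. The untreated birds were of the same age, with neither diffuser nor injection. There were 3 libraries of 4 h recovery and of 24 h untreated retina, and 4 of every other group. No group injected with vehicle alone is used here, so drug and injection cannot be told apart. The labels do not say whether the libraries of a group are separate birds, and p-values then measure only the spread between these samples, which may be technical.

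Fast transmission in the retina runs on glutamate, GABA and glycine. Vesicular transporters load these transmitters, and uptake carriers of neurons and of Mueller glia, the radial support cells of the retina, end the signal. Glutamate taken up by glia is turned into glutamine and returned to neurons through carriers of the SLC38 family. Carriers of the SLC7 family and their relatives supply amino acids for protein and glutathione synthesis, and in mammals several of them are induced when amino acids run short.

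Total counts ran from 7.4 to 24.8 M per library. Markers of photoreceptors, bipolar, horizontal, amacrine and ganglion cells and of Mueller glia were present in every library, as a retina label requires. Markers of the pigment epithelium, which lies behind the neural retina, were present too: RPE65 ranged from 31.9 to 499 CPM (counts relative to library size, with sizes scaled by the TMM method), and the mean log2 CPM of the 9 pigment epithelium markers ranged from 1.33 to 5.63 between libraries of the same study. Genes of the amino acid response had a mean log2 CPM of 6.12 and 6.09 in untreated libraries 1 and 3 at 4 h. It was 5.15 in pirenzepine library 3 at 4 h, against a median of 4.36 over all 54. Recovery library 4 at 24 h had 5.39, above that pirenzepine library. The untreated libraries 1 and 3 and pirenzepine library 3, which had the highest ASNS values, were taken as a set of 3. Results of several transporters are also given without these libraries, and those of SLC38A2 and SLC6A17 only with them. Members with any difference among groups are named from the fit of all libraries.

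Levels of different genes were compared as CPM per kb of the counted transcript, given as mean ± SD over the 54 libraries. SLC1A3, the glutamate transporter of Mueller glia, had 239 ± 39 CPM per kb, and SLC6A9, a glycine transporter of glycinergic amacrine cells, 181 ± 22.7. The taurine transporter SLC6A6 had 157 ± 27.5, the vesicular GABA and glycine transporter SLC32A1 141 ± 10.5, and the amino acid carrier SLC38A2 111 ± 10.3. All of these lay over 100 CPM per kb. The ranges of neighbours in this order overlapped between libraries: SLC1A3 ran from 180 to 341 and SLC6A9 from 140 to 249.

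Another 20 members lay between 10 and 100 CPM per kb. Among them, SLC17A6, the vesicular glutamate transporter of ganglion cells, had 89.2 ± 7.58, the glutamine transporter SLC38A3 77.4 ± 12.4, the synaptic vesicle amino acid transporter SLC6A17 72.7 ± 12.6 and SLC7A5, which carries large neutral amino acids, 70.8 ± 25.2. The other glutamate uptake carriers stood close together, SLC1A7 at 45.4 ± 5.12, SLC1A2 at 43.9 ± 8.94 and SLC1A1 at 32.5 ± 3.05, well below SLC1A3. Lower still came 12 members between 1 and 10 CPM per kb, among them the third vesicular glutamate transporter, SLC17A8, at 7.74 ± 1.26 and the serotonin transporter SLC6A4 at 3.04 ± 0.748. The last 13 lay under 1. Those left untested for low counts were SLC18A1, SLC38A8, SLC6A12, SLC6A18, SLC6A19 and SLC7A13; SLC6A18 had a count of 0 in all 54 libraries. SLC17A7 and SLC3A2 are not analysed here.

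**Figure D1:**
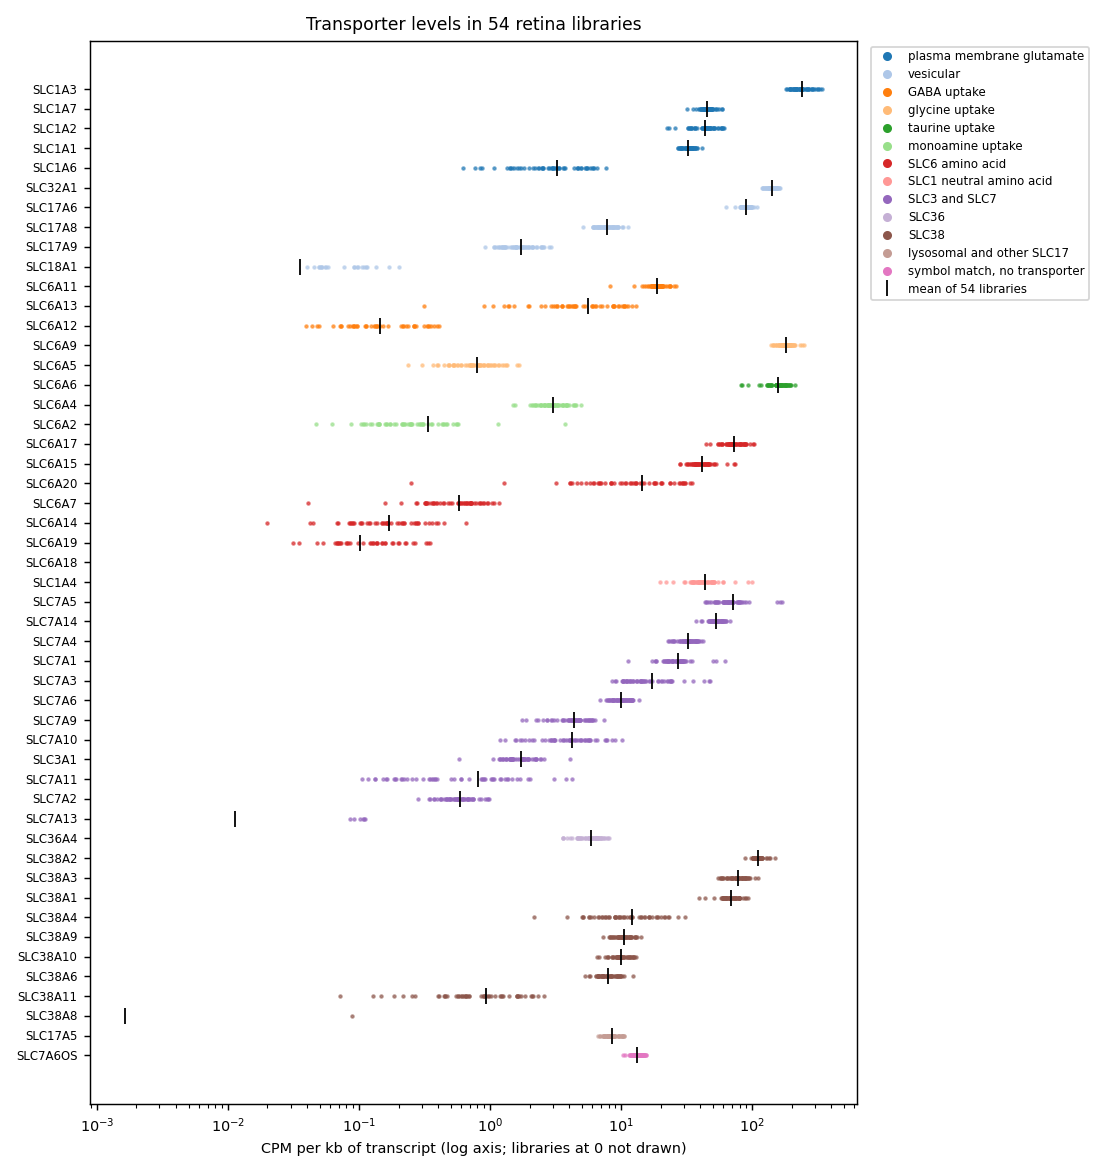
Level of each transporter shown in CPM per kb of transcript on a log axis, 1 point per library and a bar at the mean of the 54 libraries, coloured by role. SLC1A3, SLC6A9, SLC6A6, SLC32A1 and SLC38A2 lie over 100 CPM per kb, and members such as SLC6A20 and SLC7A11 are spread far more widely between libraries than SLC32A1 or SLC17A6.

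Few transporters passed in the pairs of groups tested, which did not set drug groups against untreated retina or recovery against FDM. The differences between 2 groups that passed were all in pirenzepine eyes set against FDM alone: at 4 h the cationic amino acid transporter SLC7A3 was higher and the taurine transporter SLC6A6 and the glutamate transporter SLC1A2 were lower, and at 24 h the glial glutamate transporter SLC1A3 was higher. At 4 h 3 of 45 members passed (adjusted p under 0.05, edgeR quasi-likelihood test with Benjamini-Hochberg adjustment over all genes), where 2.09% of all 15746 genes did. The 1 member that was higher compares with 1.39% of all genes higher, and the 2 that were lower with 0.699% lower. At 24 h 1 of 45 passed, where 1.63% of all genes did, 1.23% higher and 0.4% lower. In members the unadjusted threshold was reached by 9 at 4 h and 6 at 24 h, and in all genes by 14% and 11.9%. Any difference among the 14 groups was found for 7 of 45 members, or 15.6%, where 12.4% of all genes passed. They were SLC38A3 (adjusted p = 0.00158), SLC7A3 (0.0042), SLC1A3 (0.00726), SLC6A2 (0.0103), SLC1A7 (0.0165), SLC6A6 (0.0226) and SLC1A2 (0.0359).

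In the other comparisons 0 of 45 members passed with edgeR. For FDM against untreated retina 0.171% of all genes passed at 4 h and 0% at 24 h; an unadjusted p under 0.05 was reached by 12 and 1 of the members, and by 6.97% and 7.21% of all genes. For atropine against FDM 1.17% of all genes passed at 4 h and 0.0953% at 24 h, and the unadjusted threshold was reached by 6 and 5 members and by 11.8% and 13.3% of all genes. For ADTN these shares were 0.756% and 0.0381%, with 6 and 3 members and 14.7% and 7.86% of all genes unadjusted. For TPMPA they were 0.47% and 0%, with 6 and 6 members and 14.5% and 11.7% of all genes unadjusted. For recovery against untreated retina they were 0.0381% and 0.654%, with 7 and 7 members and 7.01% and 12.3% of all genes unadjusted. Atropine against pirenzepine gave 0% at 4 h and 0.197% at 24 h, with 2 and 5 members and 7.67% and 11.6% of all genes unadjusted.

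The difference between the 24 h and the 4 h change was tested for 6 pairs of conditions and gave 0 of 45 members in each. Of all genes 0% passed for FDM, atropine, pirenzepine, ADTN and TPMPA, and 0.0635% for recovery. In that order the members with an unadjusted p under 0.05 numbered 8, 4, 4, 2, 6 and 7, and the shares of all genes were 9.08%, 8.1%, 6.04%, 7.02%, 14.6% and 6.79%. In these comparisons limma voom also called 0 members, and DESeq2 called 2 for FDM at 4 h (SLC7A1 and SLC7A3), 1 for ADTN at 4 h (SLC1A7), 1 for recovery at 4 h (SLC6A2) and 0 in the rest. The shares of all genes called by these tools are not given here, so their counts are not read as more or fewer than usual. Over the 12 main comparisons the median log2 change of the 45 members lay between -0.0939 for TPMPA at 4 h and 0.0488 for FDM at 24 h, where the medians of all genes lay between -0.007 and 0.023.

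**Figure D2:**
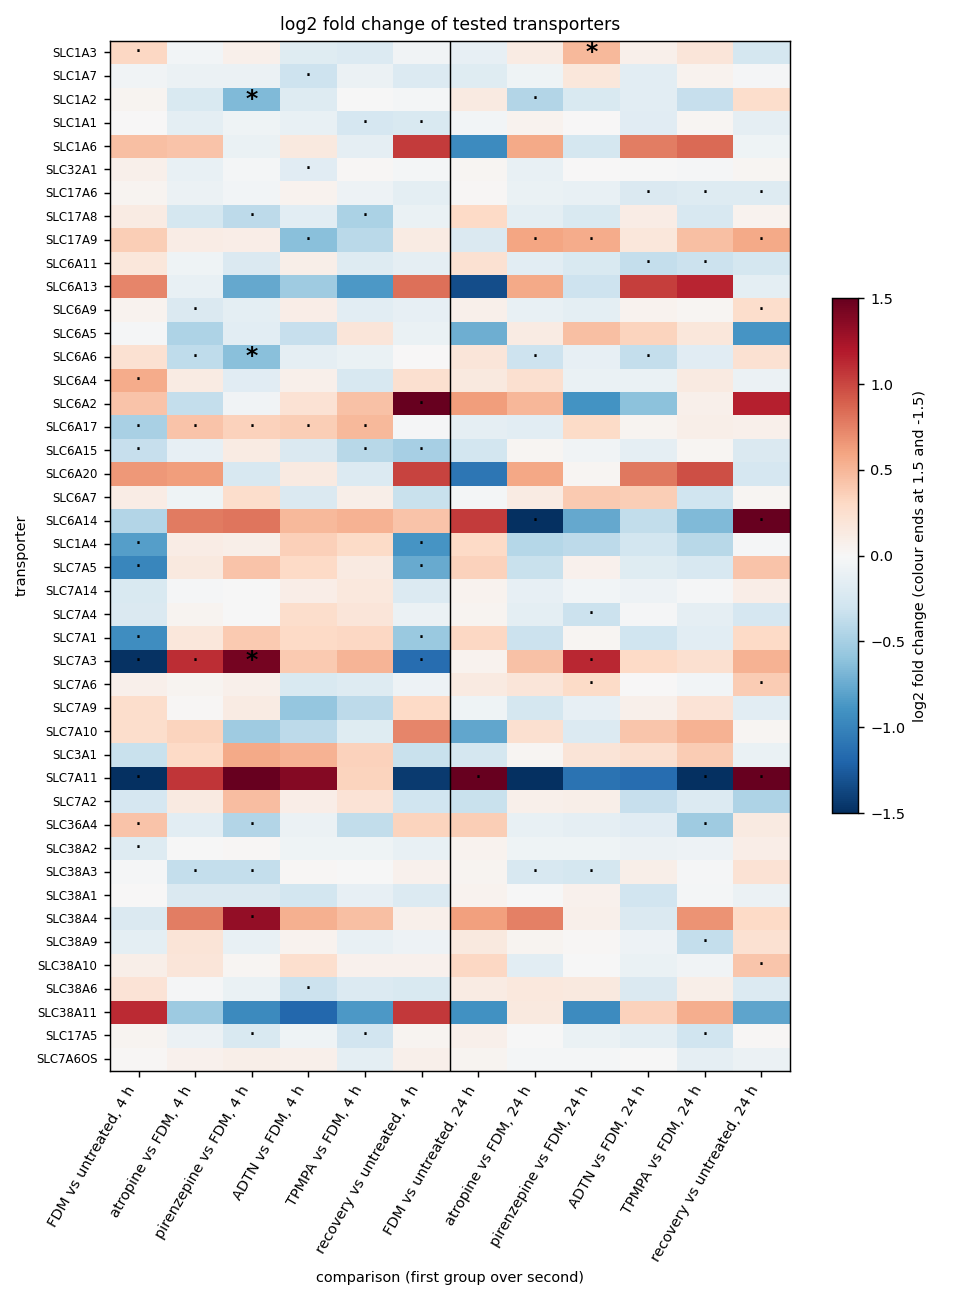
Log2 fold change of the tested transporters shown, ordered by role, in the 12 main comparisons, 4 h to the left of the line and 24 h to the right. A star marks an adjusted p under 0.05 and a dot an unadjusted p under 0.05; the 4 stars are SLC7A3, SLC6A6 and SLC1A2 for pirenzepine at 4 h and SLC1A3 for pirenzepine at 24 h.

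Of the glutamate uptake carriers, 2 had a call. SLC1A2 (ENSGALG00000037556, galGal5 chromosome 5, 19028204 to 19101484, minus strand), which clears glutamate around bipolar cells and cones in the mammalian retina, had 101, 87.4, 131 and 142 CPM in the pirenzepine libraries at 4 h, against 173, 171, 171 and 212 CPM in the FDM libraries. Every pirenzepine library lay below every FDM library. The means were 115 ± 25.5 and 182 ± 20.1 CPM (SD, n = 4 each), a log2 change of -0.66 ± 0.18 (SE, adjusted p = 0.0348). At 24 h the values overlapped, with 185, 185, 187 and 127 CPM under pirenzepine and 176, 186, 225 and 213 CPM under FDM, a log2 change of -0.23 ± 0.18 (adjusted p = 0.697). The 24 h and 4 h changes differed by 0.43, with a 95% interval from -0.06 to 0.92. With atropine SLC1A2 had a mean of 155 ± 24.8 CPM at 4 h and 148 ± 24.4 CPM at 24 h, neither past the test. The call at 4 h is the least stable of the 4: it was lost without any of FDM libraries 2, 3 or 4 or pirenzepine libraries 1 or 2 (adjusted p up to 0.202), when the transcripts of each gene were summed (0.058), when only the 2 groups were fitted (0.0815) and with a pigment epithelium or amino acid response term (0.0511 and 0.0679).

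SLC1A3 (ENSGALG00000003582, galGal5 chromosome Z, 11172322 to 11232589, plus strand) had 557, 583, 459 and 498 CPM in the pirenzepine libraries at 24 h, against 360, 371, 392 and 370 CPM in the FDM libraries. The groups did not overlap. The means were 524 ± 55.9 and 373 ± 13.1 CPM (SD, n = 4 each), a log2 change of 0.49 ± 0.12 (SE, adjusted p = 0.0208). At 4 h the groups overlapped, at 469 ± 87.7 and 445 ± 68.2 CPM, and the change was 0.08 ± 0.12. The difference between the times was 0.42, with a 95% interval from 0.08 to 0.76 and an adjusted p of 0.721. Under atropine at 24 h SLC1A3 had 404, 457, 315 and 452 CPM, below every pirenzepine library, a log2 difference of -0.37 ± 0.12 (atropine minus pirenzepine, adjusted p = 0.217). The mean log2 CPM of the other listed markers of Mueller glia was also higher, at 8.2 to 8.52 in the pirenzepine libraries at 24 h and 7.64 to 8.17 in the FDM libraries. This mean does not speak for each marker. GLUL overlapped, with 1451, 1375, 1188 and 1406 CPM under pirenzepine and 1347, 1429, 1272 and 1142 CPM under FDM. The part of these markers in the result was not tested. The pirenzepine call was lost without FDM libraries 1 or 2 or pirenzepine library 2 (adjusted p up to 0.114) and with the vessel markers as a term (0.0533). The count of SLC1A3 falls behind the total count in deep libraries (below), and with the total count as a term its log2 change was 0.37 (adjusted p = 0.00445).

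In bulk tissue fewer cells of a type and less RNA per cell cannot be told apart, here or for any gene below. The remaining glutamate carriers gave no call. SLC1A7, carried by photoreceptors and bipolar cells, was among those with any difference between groups: the ADTN libraries at 4 h had 70.5, 59, 64.6 and 50.6 CPM, against 65.1, 73.7, 76.7 and 88.9 CPM under FDM. Those groups overlapped, with a log2 change of -0.31 ± 0.09 (adjusted p = 0.0862), which passed without FDM library 1 (0.0204) and with a pigment epithelium term (0.0218). SLC1A1, the glutamate transporter of neuronal cell bodies, was nearly level across groups, with group means from 45.2 CPM in ADTN at 24 h to 55.2 CPM in FDM at 4 h.

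The vesicular transporters SLC32A1 and SLC17A6 varied little. SLC32A1 had group means from 153 CPM in ADTN at 4 h to 174 CPM in TPMPA at 4 h, a ratio of 1.14, and SLC17A6 from 141 CPM in recovery at 4 h to 168 CPM in FDM at 24 h, a ratio of 1.19. Their coefficients of variation over the 54 libraries, 7.48% for SLC32A1 and 8.51% for SLC17A6, were the smallest of the 45 tested members. Over the 12 main comparisons the 95% interval of the log2 change stayed between -0.38 and 0.21 for SLC17A6 and between -0.32 and 0.23 for SLC32A1. The low vesicular transporter SLC17A8, which marks a small class of amacrine cells in mammals, had 11.5, 15.3, 11.6 and 9.39 CPM under TPMPA at 4 h, against 13.7, 16.2, 16.4 and 20.7 CPM under FDM. The groups overlapped only through TPMPA library 2 and FDM library 1, and the log2 change of -0.48 ± 0.15 did not pass (adjusted p = 0.124); it passed without FDM library 1 (0.0393).

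GABA, glycine, taurine and monoamine uptake come next. Of the GABA carriers, SLC6A11 had group means from 36.5 CPM in recovery at 24 h to 51.7 CPM in FDM at 24 h, and SLC6A13, a carrier known from meninges and epithelia, is treated with the pigment epithelium below. SLC6A9 had group means from 576 CPM in atropine at 4 h to 762 CPM in recovery at 24 h with no call. SLC6A5, the glycine transporter of spinal glycinergic neurons, stayed at 3.86 CPM or less in every library.

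SLC6A6 (ENSGALG00000006425, galGal5 chromosome 12, 10969859 to 11019295, plus strand) imports taurine, which photoreceptors hold at high concentration. At 4 h it had 221, 199, 333 and 311 CPM in the pirenzepine libraries, against 389, 446, 387 and 423 CPM in the FDM libraries. No value was shared between the groups, and pirenzepine libraries 1 and 2 were the lowest of all 27 libraries of that time. The means were 266 ± 66.2 and 411 ± 28.2 CPM (SD, n = 4 each), a log2 change of -0.63 ± 0.15 (SE, adjusted p = 0.0149). With atropine the 4 values, 309, 269, 375 and 308 CPM, also lay below every FDM library, with a log2 change of -0.38 ± 0.15 that did not pass (adjusted p = 0.264). The atropine and pirenzepine groups differed by 0.25, with a 95% interval from -0.05 to 0.54. At 24 h the pirenzepine and FDM groups overlapped, with means of 402 ± 63.3 and 439 ± 24 CPM and a log2 change of -0.13 ± 0.15 (adjusted p = 0.84). The change at 24 h exceeded that at 4 h by 0.50, with a 95% interval from 0.08 to 0.92 and an adjusted p of 0.744. The 4 h call was lost without FDM libraries 2 or 4 or pirenzepine libraries 1 or 2 (adjusted p up to 0.125) and when only the 2 groups were fitted (0.114).

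The monoamine carriers were low. SLC6A4 lay between 3.18 and 10.6 CPM, with no call. The noradrenaline transporter SLC6A2 had 0.686, 10.2 and 0.837 CPM in the recovery libraries at 4 h, against 0.237, 0.382, 0.47 and 0.8 CPM in untreated retina. Recovery library 2 alone was high, and no other library of the study passed 3.16 CPM. That library also had the highest mean log2 CPM of the study for vessel markers (4.32) and for pigment epithelium markers (5.63). The part of such tissue in its SLC6A2 value was not tested. The log2 change was 3.06 ± 0.70 (adjusted p = 0.0604); it passed without recovery library 1 or 3, which left the high library with a single partner, and not without library 2.

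**Figure D3:**
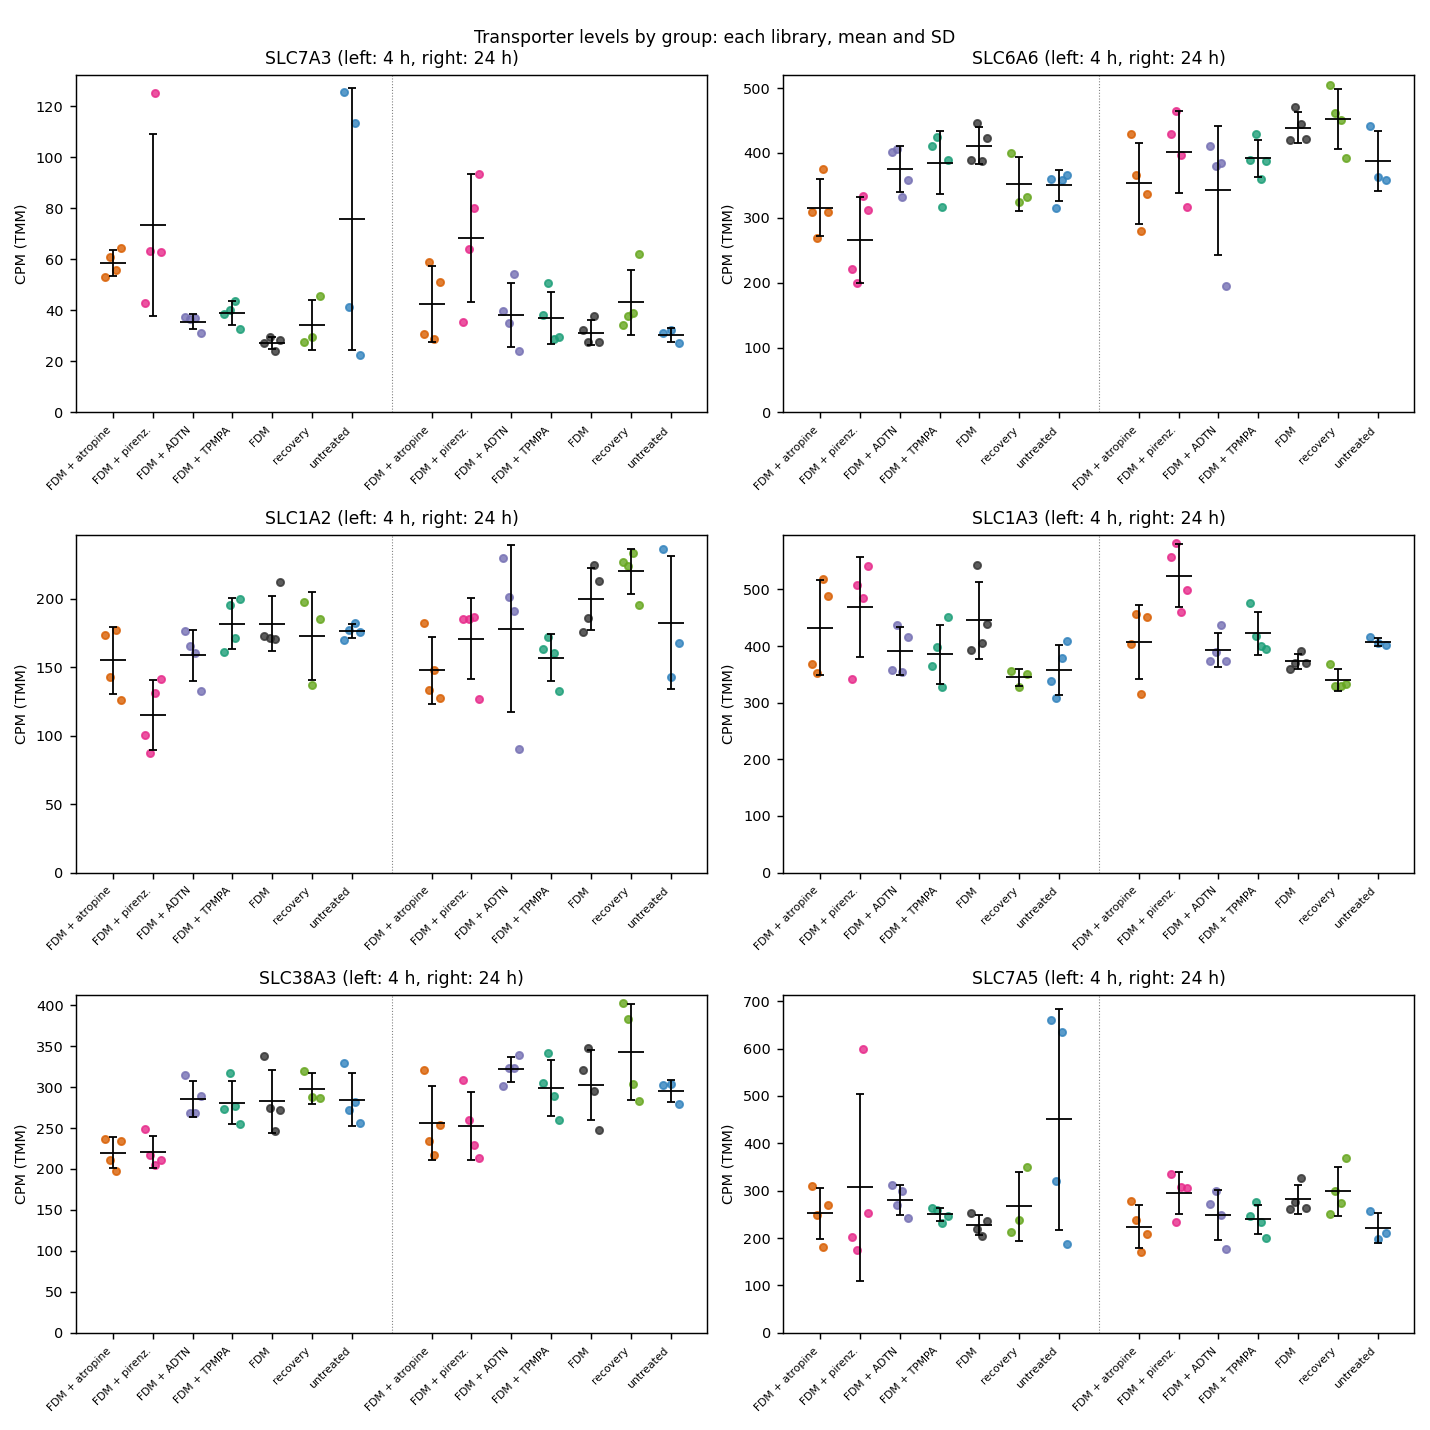
CPM of 6 transporters in each library, with the group mean and SD, 4 h at left and 24 h at right in each panel. Pirenzepine at 4 h lies above FDM for SLC7A3 and below it for SLC6A6 and SLC1A2, pirenzepine at 24 h lies above FDM for SLC1A3, and untreated libraries 1 and 3 at 4 h stand apart in SLC7A3 and SLC7A5.

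Among the amino acid carriers, SLC7A3 (ENSGALG00000033002, galGal5 chromosome 4, 2442374 to 2449919, plus strand), which imports arginine, lysine and ornithine, was the member with the largest called change. At 4 h it had 43, 63.2, 125 and 62.8 CPM in the pirenzepine libraries, against 27.4, 29.5, 24 and 28.2 CPM in the FDM libraries. All 4 pirenzepine values were higher than all FDM values, and library 3 was far above its group. The means were 73.6 ± 35.7 and 27.3 ± 2.37 CPM (SD, n = 4 each), a log2 change of 1.43 ± 0.34 (SE, adjusted p = 0.0141). The atropine libraries had 53.1, 60.8, 55.9 and 64.5 CPM, also all above FDM and close to one another, with a log2 change of 1.10 ± 0.34 (adjusted p = 0.109). That value passed when only atropine and FDM libraries were fitted (9.59e-05), and not in the model of all groups. ADTN gave 37.6, 36.8, 36.9 and 31.2 CPM and TPMPA 38.6, 40.3, 43.7 and 32.6 CPM, above every FDM library as well, with log2 changes of 0.39 ± 0.34 and 0.51 ± 0.34 that did not pass. The 4 drug comparisons share the same 4 FDM libraries, and FDM at 4 h had the lowest group mean of SLC7A3 in the study.

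At 24 h SLC7A3 had 35.3, 63.9, 80 and 93.5 CPM under pirenzepine, against 32.2, 27.4, 37.8 and 27.6 CPM under FDM. The groups overlapped only through pirenzepine library 1 and FDM library 3. The log2 change of 1.13 ± 0.34 did not pass (adjusted p = 0.0784); it passed with DESeq2 (0.0402), without pirenzepine library 1 (0.0194) and with the amino acid response as a term (0.0255). Atropine minus pirenzepine was -0.69 ± 0.33 at 24 h (95% interval -1.35 to -0.04, adjusted p = 0.412) and -0.33 ± 0.33 at 4 h (95% interval -0.98 to 0.32). The pirenzepine call at 4 h was lost without pirenzepine library 3 (log2 change 1.05, adjusted p = 0.101) or FDM library 3 (0.055), with limma voom (0.0618) and when only the 2 groups were fitted (0.0753). With the amino acid response as a term the change was 0.88, still past the test (adjusted p = 0.0291).

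In FDM against untreated retina at 4 h, the 12 members with an unadjusted p under 0.05 made up 26.7% of those tested, against 6.97% of all genes, and none passed the adjustment. They included lower values for SLC1A4, SLC38A2, SLC6A15, SLC6A17, SLC7A1, SLC7A11, SLC7A3 and SLC7A5 and higher values for SLC1A3, SLC36A4 and SLC6A4; those outside the rule for named genes are named because they fell in this count. SLC7A3 came closest, with the FDM values above against 125.7, 41.3, 113.5 and 22.5 CPM in untreated retina. Untreated libraries 1 and 3 carried the difference, and untreated library 4 lay below every FDM library. The log2 change was -1.48 ± 0.34 (adjusted p = 0.0514). SLC7A5 had 254, 219, 205 and 236 CPM under FDM, against 660, 320, 634 and 187 CPM in untreated retina, with the same libraries high and a log2 change of -0.98 ± 0.27 (adjusted p = 0.18). SLC7A1, a second cationic amino acid transporter, had 52.1, 33.6, 34 and 40.6 CPM under FDM and 115, 54.6, 97.3 and 39.1 CPM in untreated retina (log2 change -0.93 ± 0.25, adjusted p = 0.129). Without untreated libraries 1 and 3 the log2 changes were -0.24 for SLC7A3, -0.16 for SLC7A5 and -0.23 for SLC7A1. They were -0.11 for SLC1A4, a carrier of alanine, serine and cysteine, 0.001 for SLC6A15 and -0.52 for SLC7A11. No gene of the whole table passed in that fit. Without untreated library 4 instead, SLC7A3, SLC7A5 and SLC7A1 all passed (adjusted p = 0.00162, 0.00799 and 0.00875), and without untreated library 2 SLC7A3 did (0.0161). SLC1A3, in contrast, was as high in FDM without libraries 1 and 3, at 0.31, still with no call. Its level falls with the total count (below). Total counts at 4 h averaged 11.99 ± 3.35 M under FDM and 16.78 ± 4.36 M in untreated retina. The part of the total count in this SLC1A3 difference was not tested.

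SLC7A11, which exchanges cystine for glutamate and feeds glutathione synthesis, was near the floor of detection, from 0 to 6.24 CPM. At 24 h it had 1.34, 1.56, 1.51 and 2.96 CPM in FDM and 0.89, 1.78, 1.76 and 2.88 CPM in recovery, against 0.58, 0.236 and 0.175 CPM in untreated retina. TPMPA libraries had 0.196, 0, 0.316 and 0.562 CPM, below every FDM library. None of these differences passed (adjusted p = 0.679, 0.361 and 0.294). The vessel markers, with which SLC7A11 moves (below), had a mean log2 CPM of 2.32 to 3.82 in FDM and 3.27 to 3.92 in recovery. That mean was 0.284 to 1.35 in TPMPA and 0.0972 to 0.306 in untreated retina. The part of vessel content in these differences was not tested. The highest SLC7A11 values of the study were at 4 h, with 4.55 and 5.64 CPM in untreated libraries 1 and 3 and 6.24 CPM in pirenzepine library 3. The vessel means of those libraries were 3.08, 2.77 and 0.65.

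SLC6A17, which loads neutral amino acids into synaptic vesicles, is named after its values were seen. At 4 h its FDM mean of 125 ± 20.7 CPM was the lowest of the 14 group means, against 176 ± 39.1 CPM in untreated retina, and the means with atropine, pirenzepine, ADTN and TPMPA were 168 ± 25.8, 159 ± 41.4, 162 ± 19.3 and 175 ± 21.1 CPM. Each log2 change had an unadjusted p under 0.05 and none passed (adjusted p from 0.139 for TPMPA to 0.318 for FDM), and all 5 comparisons rest on the same FDM libraries. Without FDM library 1 the TPMPA change passed (adjusted p = 0.0436).

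Among the glutamine carriers, SLC38A3 (ENSGALG00000028871, galGal5 chromosome 12, 3203801 to 3209305, minus strand), which releases glutamine from Mueller glia, showed the smallest p for any difference among groups. Its group means ran from 220 CPM in atropine at 4 h to 343 CPM in recovery at 24 h. At 4 h it had 249, 217, 205 and 211 CPM with pirenzepine and 237, 211, 198 and 234 CPM with atropine, against 338, 275, 246 and 272 CPM under FDM. Every atropine library was below every FDM library, and of the pirenzepine libraries only library 1 overlapped FDM. The log2 changes were -0.36 ± 0.12 for both (adjusted p = 0.104 for pirenzepine and 0.137 for atropine). At 24 h they were -0.26 ± 0.12 with pirenzepine and -0.24 ± 0.12 with atropine, again with no call. Atropine and pirenzepine themselves differed by -0.005 ± 0.12 at 4 h (95% interval -0.23 to 0.23) and 0.02 ± 0.12 at 24 h (95% interval -0.21 to 0.25). ADTN and TPMPA libraries at 4 h, at 286 and 281 CPM on average, stood beside FDM at 282 CPM. SLC38A2, induced by amino acid shortage in mammals, had group means from 541 CPM in ADTN at 4 h to 650 CPM in untreated retina at 4 h. In that untreated group libraries 1 and 3 had 688 and 772 CPM, and libraries 2 and 4 had 526 and 612 CPM. SLC38A1, a neuronal glutamine carrier, had group means from 100 CPM in ADTN at 24 h to 130 CPM in FDM at 4 h. ADTN library 4 at 24 h had 67.6 CPM of SLC38A1, and libraries 1 to 3 had 127, 98.6 and 108 CPM. Both genes had no call.

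How single libraries varied inside a group was examined next, with tests chosen after the values were seen. Each score is the mean log2 CPM of a marker list, and edgeR tested the slope of each gene on the score with the 14 group means fitted. With the amino acid response score, built from genes such as ASNS and CHAC1 and no transporter, 5 of 45 members rose, where 0.337% of all genes moved with it. Per unit of the score SLC7A3 gained 1.08 ± 0.13 on the log2 scale (adjusted p = 3.8e-07), SLC7A5 0.85 ± 0.11 (7.79e-07), SLC7A1 0.63 ± 0.12 (0.00247), SLC1A4 0.58 ± 0.14 (0.0411) and SLC6A15, a neuronal carrier of branched-chain amino acids, 0.39 ± 0.09 (0.0175). The calls, more than the slopes of SLC7A3 and SLC7A5, depended on untreated libraries 1 and 3 and pirenzepine library 3 at 4 h. In those libraries ASNS, which makes asparagine, had 248, 240 and 203 CPM, against 24.7 to 96.2 CPM in the other 51. Recovery library 4 at 24 h, with a score of 5.39 and 96.2 CPM of ASNS, was not among the 3 libraries left out next. Without the 3 libraries no member passed, with 0.184% of all genes called: SLC7A3 had a slope of 0.84 (adjusted p = 0.129), SLC7A5 0.59 (0.138), SLC7A1 0.22 (0.687), SLC6A15 0.22 (0.558) and SLC1A4 0.05 (0.957).

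**Figure D4:**
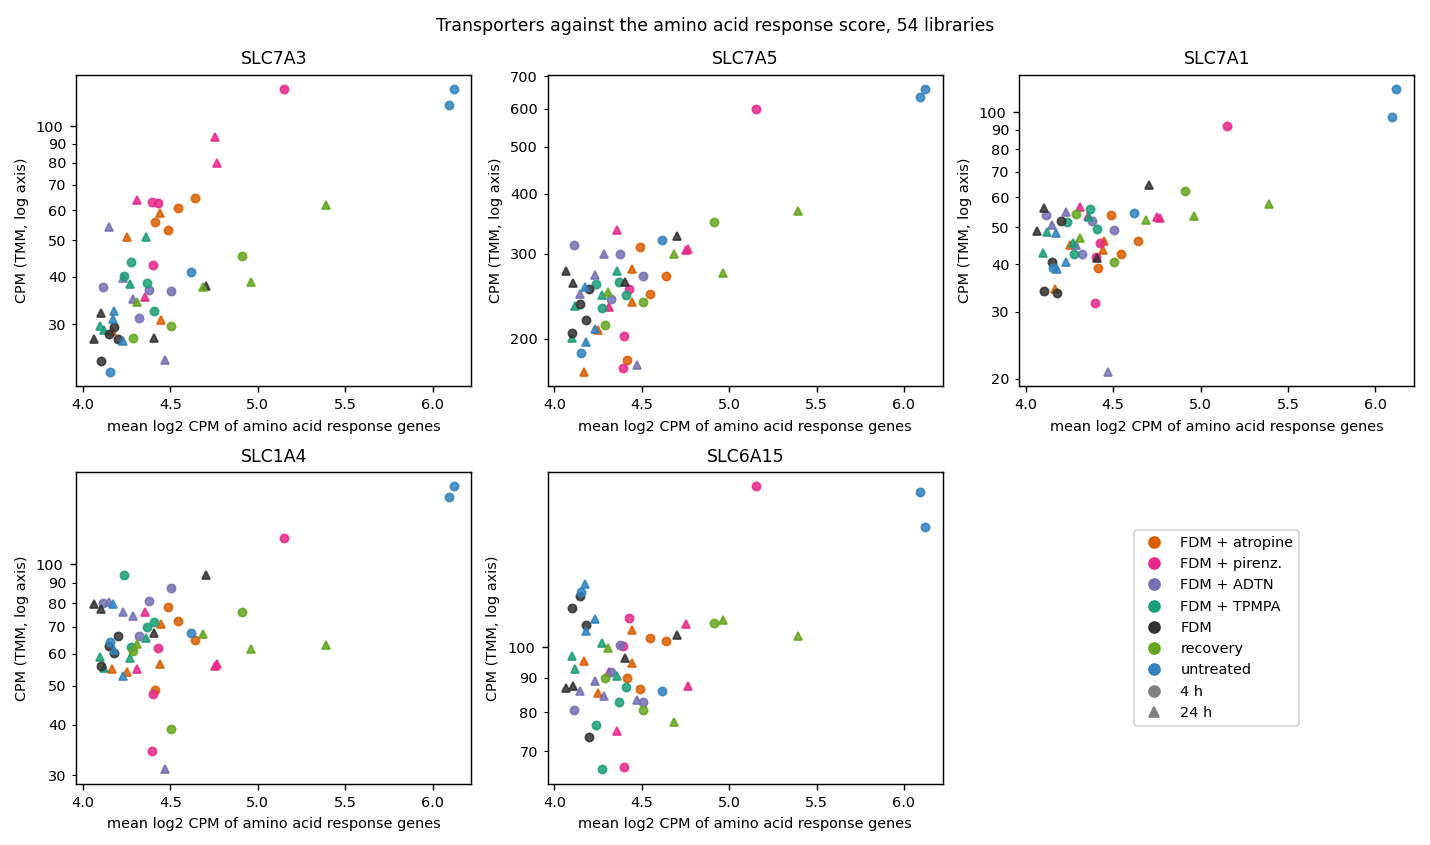
CPM of 5 transporters on a log axis against the mean log2 CPM of amino acid response genes, 1 point per library, coloured by condition. Untreated libraries 1 and 3 at 4 h lie at scores of 6.12 and 6.09 and pirenzepine library 3 at 4 h at 5.15. These 3 hold the highest SLC7A3, SLC7A5, SLC7A1, SLC1A4 and SLC6A15 values. Recovery library 4 at 24 h lies at a score of 5.39.

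With the pigment epithelium score 6 of 45 members moved, all upward, where 3.24% of all genes passed. SLC6A20, a proline transporter of epithelia, gained 1.34 ± 0.09 per unit (adjusted p = 1.06e-14) and SLC6A13 1.10 ± 0.08 (7.49e-14). SLC1A6, a glutamate transporter known from cerebellar Purkinje cells, gained 0.93 ± 0.06 (2.02e-16), the poorly known SLC38A11 0.95 ± 0.15 (6.69e-06), SLC7A10, a carrier of small neutral amino acids, 0.68 ± 0.07 (5.9e-10) and SLC1A7 only 0.09 ± 0.02 (0.00236). SLC6A20 ranged from 0.475 to 67.1 CPM and SLC6A13 from 0.561 to 23.1 CPM, and both minima were in TPMPA library 3 at 4 h, which also had the lowest pigment epithelium score. No treatment comparison of these 6 members passed in the main edgeR fit. SLC1A7 passed for ADTN at 4 h with DESeq2, without FDM library 1 and with a pigment epithelium term. SLC6A13 had group means from 4.87 CPM in pirenzepine at 24 h to 15.3 CPM in untreated retina at 24 h. The pigment scores of those groups were 4.03 ± 0.94 and 4.68 ± 0.464 (n = 4 and n = 3). The part of the pigment epithelium in this group difference was not tested.

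**Figure D5:**
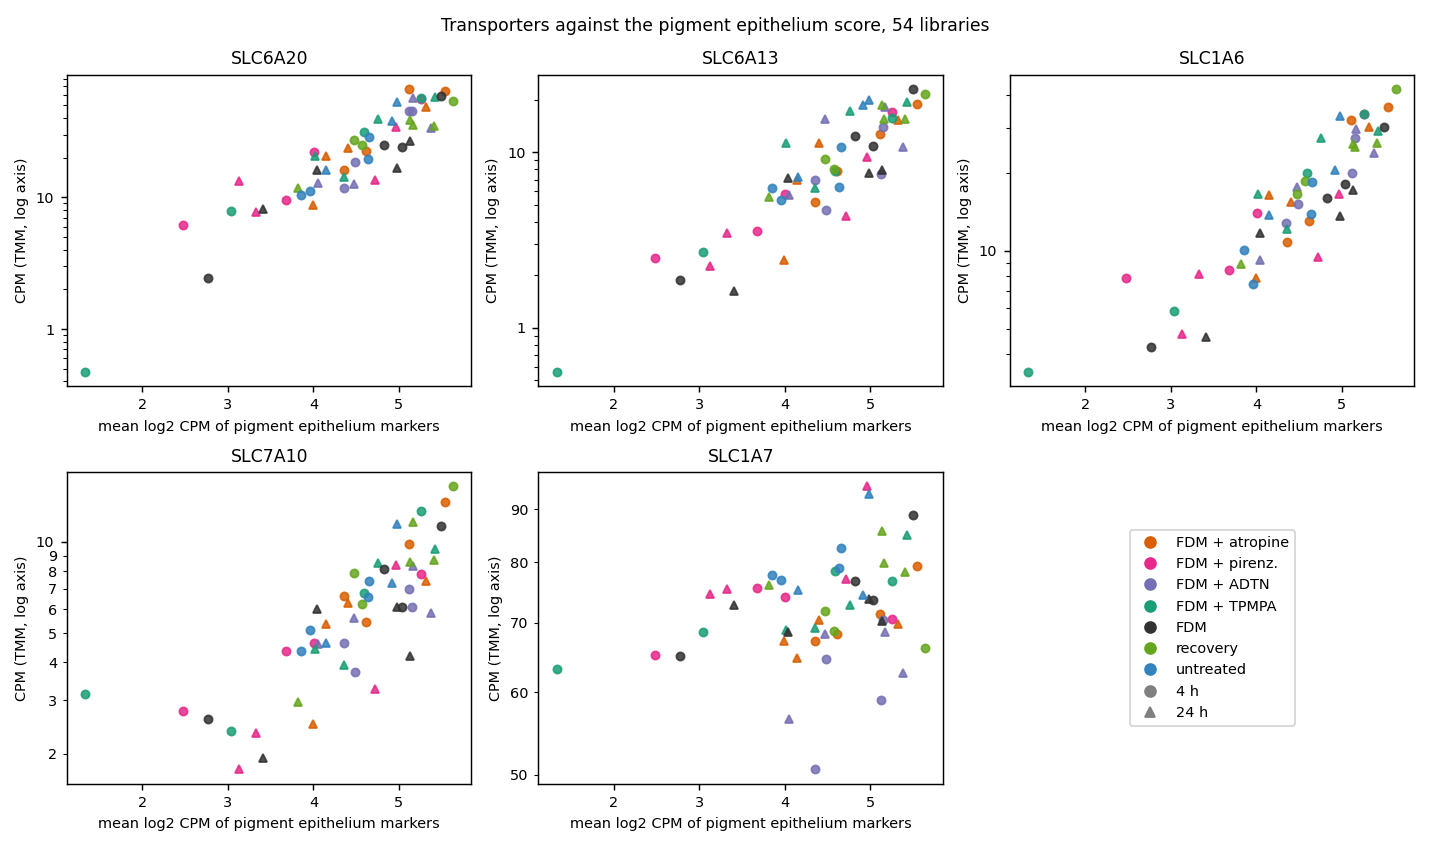
CPM of 5 transporters on a log axis against the mean log2 CPM of pigment epithelium markers, 1 point per library, coloured by condition. SLC6A20, SLC6A13, SLC1A6 and SLC7A10 climb with the score, from TPMPA library 3 at 4 h at a score of 1.33 to a recovery library at 5.63, and SLC1A7 does so only slightly.

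The vessel and pecten score (the pecten is the vascular fold of the bird eye) drew 2 of 45 members, where 7.03% of all genes passed: SLC7A11 gained 0.65 ± 0.15 per unit (adjusted p = 0.00243) and SLC38A10 0.11 ± 0.02 (0.000212). The leukocyte and red cell scores drew 0 of 45, where 4.12% and 2.69% of all genes passed, and 6 and 2 members had an unadjusted p under 0.05. With the Mueller glia score, 2.69% of all genes and 2 of 45 members passed, among them SLC1A3 with 0.76 ± 0.11 per unit (adjusted p = 6.14e-05). Its call was lost once the total count was fitted as well (adjusted p = 0.788).

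The total count itself drew 4 of 45 members, where 7.79% of all genes passed. Among them, the log2 slope of the normalised level on log2 total count was -0.45 ± 0.05 for SLC1A3 (adjusted p = 8.08e-09), -0.25 ± 0.07 for SLC6A9 (0.00942) and 0.29 ± 0.09 for SLC38A10 (0.0483). Dense transcripts behaved so in general: the slope of log2 count on log2 total had a median of 1.15 for the 11378 genes under 0.5 counts per base and 0.632 for the 108 genes from 3 to 4. SLC1A3 has 3.56 counts per base and a slope of 0.607, SLC6A9 2.73 and 0.86, and SLC6A6 2.37 and 0.957.

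Enzymes that make and break down transmitters were set beside the carriers as a list of 20 genes, of which 16 were tested. In the 12 main comparisons 4 values passed, and 3 of them were TPH1, which starts serotonin and melatonin synthesis. TPH1 had 64, 54, 66.9 and 39.7 CPM with ADTN at 4 h, against 39.1, 16.6, 14.6 and 12.4 CPM under FDM. The ADTN libraries all lay above the FDM libraries, with a log2 change of 1.44 ± 0.28 (adjusted p = 0.00824), lost without FDM library 2, 3 or 4 (up to 0.0764), when only the 2 groups were fitted (0.178) and with the vessel score as a term (0.0691). The vessel score averaged 3.50 ± 0.837 with ADTN and 1.31 ± 1.08 under FDM. With atropine TPH1 had 39.1, 48.4, 19.9 and 64.1 CPM, overlapping FDM, and a change of 1.04 ± 0.28 (adjusted p = 0.0484) that held in 5 of 12 other settings and in 2 of 8 fits with a library left out. Both comparisons share the same FDM libraries, of which 2, 3 and 4 had the lowest TPH1 values at 4 h. Untreated retina had 31.6, 43.4, 40.6 and 41.6 CPM at that time, pirenzepine 23.4 to 54.9 CPM and TPMPA 33.4 to 52.4 CPM. For FDM, pirenzepine and TPMPA no gene of the list passed at 4 h. In recovery at 24 h TPH1 had 9.56, 12.8, 13.2 and 11.5 CPM, against 26.7, 28.8 and 31.7 CPM in untreated retina, a change of -1.30 ± 0.30 (adjusted p = 0.0238) that held in 1 of 7 fits with a library left out. The serotonin carrier SLC6A4 passed in none of these comparisons.

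GLUL, the glutamine synthetase of Mueller glia, had 836, 879, 937 and 1259 CPM with atropine at 4 h, against 1506, 1917, 1166 and 1331 CPM under FDM. The groups overlapped only through atropine library 4 and FDM library 3, and the log2 change was -0.60 ± 0.14 (adjusted p = 0.0212). The call was lost with the total count as a term (-0.24, adjusted p = 0.0629), when only the 2 groups were fitted (0.168), without FDM library 2, and without atropine library 1, 2 or 3 (up to 0.215). Total counts averaged 17.9 ± 4.61 M with atropine and 11.99 ± 3.35 M under FDM.

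Of 24 amino acid response genes other than transporters, 17 were tested, and 7 were lower in FDM than in untreated retina at 4 h, with a median log2 change of -1.09 over the 17 against -0.01 over all genes. The 6 with the smallest p were CHAC1, which degrades glutathione (-4.30), the transcription factor CEBPB (-3.16), PSAT1 (-1.79) and PHGDH (-4.72) of serine synthesis, MTHFD2 of mitochondrial folate metabolism (-1.35) and ASNS (-1.94). None of the 7 passed without untreated libraries 1 and 3, the libraries in which SLC7A3 and SLC7A5 were high. CEBPB was higher with pirenzepine at both times, at 3.82, 17.1, 18.2 and 14.5 CPM against 1.72, 2.13, 1.89 and 2.61 CPM under FDM at 4 h (log2 change 2.68 ± 0.64, adjusted p = 0.0136), and at 3.76, 17.3, 22.8 and 19 CPM against 2.95, 2.27, 2.33 and 2.43 CPM at 24 h (2.66 ± 0.61, adjusted p = 0.0107). Values above FDM were not particular to pirenzepine at either time. At 4 h libraries with atropine (8.99 to 12.3 CPM), ADTN (3.93 to 17.8) and TPMPA (4.61 to 7.47) also lay above every FDM library. So did untreated (3.7 to 36.5) and recovery (3.98 to 6.56) libraries. At 24 h ADTN (3.54 to 8.71 CPM), untreated (3.86 to 5.24) and recovery (3.04 to 8.64) libraries lay above every FDM library. Atropine (2.88 to 12.9) and TPMPA (1.62 to 7.77) overlapped FDM at that time. With atropine, ADTN or TPMPA no gene of the list passed at either time. Pirenzepine library 1 was the lowest of its group at both times, as it was for SLC7A3. The 4 h call was lost with limma voom (adjusted p = 0.261) and without FDM library 3 or pirenzepine library 2 (up to 0.0507), and the 24 h call with limma voom (0.129).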

How the data were processed

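RNA-seq counts per transcript were deposited by the authors in a single table with transcript lengths and coordinates. Per the submitters' processing notes, Trimmomatic 0.36, HISAT2 2.1, HOMER, edgeR and limma were used, with galGal5 (the strand setting of the counting is not stated there). The deposited lengths and coordinates were used as given. For each gene name the transcript with the largest summed count was kept. Genes passed edgeR's expression filter (minimum count 10, minimum total 15), which left 15746. One quasi-likelihood model with 14 group means was fitted with TMM scaling (edgeR 4.0.16, limma 3.58.1, R 4.3.3), and p-values were adjusted over all genes at a threshold of 0.05. DESeq2 1.42.0, limma voom, other scaling and filters, covariates and left-out libraries were alternatives. Members and lists were chosen with earlier results of these data known. Genes named were those past the threshold, the defining members of each role, and up to 6 per list and comparison; SLC1A4, SLC1A6, SLC1A7, SLC38A10, SLC38A11, SLC6A15, SLC6A17, SLC6A2, SLC6A20, SLC7A10 and SLC7A6OS were added after their values were seen. Log2 values are fold changes of normalised counts. No sequences are shown. A member counted in the totals is not reported here.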

Additional observations from a re-analysis of the deposited data

Results flagged for a closer look

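Among 132 group values of 11 transporters, 11 held a single library whose gap to the nearest other, as a share of the group's range, exceeded Dixon's 95% critical value, which chance alone passes in about 1 group in 20. SLC1A2 stood at 212 CPM in FDM library 4 at 4 h (others 171 to 173) and at 127 CPM in pirenzepine library 4 at 24 h (others 185 to 187). SLC1A3 stood at 369 CPM in recovery library 1 at 24 h (others 329 to 333). SLC1A4 stood at 71.1 CPM in atropine library 1 (others 54.1 to 56.7), at 76 CPM in pirenzepine library 1 (others 55.1 to 56.5) and at 31.1 CPM in ADTN library 4 (others 74.4 to 80.4), all at 24 h. The same ADTN library had the low SLC6A6 value, 194 CPM (others 379 to 411). SLC6A6 was also low in untreated library 2 at 4 h, at 315 CPM (others 358 to 366). SLC1A7 stood at 94.6 CPM in pirenzepine library 3 at 24 h (others 74.6 to 77.1). SLC7A3 stood at 31.2 CPM in ADTN library 4 at 4 h (others 36.8 to 37.6) and at 62 CPM in recovery library 4 at 24 h (others 34.2 to 38.8).

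The change of recovery against untreated differed between 24 h and 4 h for 2 amino acid response genes by edgeR's test of the difference. CHAC1 differed by 5.91 on the log2 scale (adjusted p = 0.0106) and MTHFD2 by 2.18 (adjusted p = 0.0382). Untreated libraries 1 and 3 at 4 h had 78.1 and 72.3 CPM of CHAC1, against 7.35 and 4 CPM in untreated libraries 2 and 4. Without both, in a fit added after seeing the data, neither gene passed, with 3.08 for CHAC1 (adjusted p = 0.735) and 0.98 for MTHFD2 (0.9999). Counting that fit, the CHAC1 call held in 8 of 13 settings and in 10 of 14 fits with 1 library left out (adjusted p up to 0.0912). The MTHFD2 call held in 6 of 13 settings and in 5 of 14 such fits (up to 0.257), and was lost without untreated library 1 (0.161) or 3 (0.159) at 4 h alone. Both calls were lost with limma voom, when only the groups compared were fitted, and with the vessel or amino acid response score as a term, and MTHFD2 also with no filter on low counts and with the total count as a term.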

How the results depend on the processing

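Counts of members called were set against each alternative; signs of values that failed the test were not compared, and the cause of a moved count was not tested. The share of all genes called in each alternative is not given here. The counts below therefore show only which member calls moved, and not whether members were called more often than other genes. DESeq2 called 2 for FDM at 4 h, 1 for ADTN at 4 h, 1 for recovery at 4 h, 2 for pirenzepine at 24 h and 12 for any difference among groups. Fitting only the groups compared called 1 for atropine at 4 h (SLC7A3), 0 for pirenzepine at 4 h, 1 for TPMPA at 24 h (SLC7A11) and 1 for atropine against pirenzepine at 24 h (SLC6A17). The small RNA share as a covariate called 1 for recovery at 4 h, and the vessel score 0 for pirenzepine at 24 h. The pigment epithelium score called 1 for ADTN at 4 h and the amino acid response score 2 for pirenzepine at 24 h; both were chosen after seeing the data. With 1 library left out, counts ran from 0 to 3 for FDM at 4 h, 1 to 3 for pirenzepine at 4 h, 0 to 1 for ADTN at 4 h, 0 to 2 for TPMPA at 4 h, 0 to 1 for recovery at 4 h, 0 to 2 for pirenzepine at 24 h and 5 to 10 for any difference, and were 0 throughout in the other comparisons.

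With the replicate block, 1 member was called for atropine at 4 h (SLC38A3), 4 for pirenzepine at 4 h (SLC38A3 added), 1 for recovery at 24 h (SLC38A10) and 9 for any difference. Deviations of libraries with the same number had a median correlation of 0.0973 (-0.634 to 0.743 over 339 pairs), against -0.0311 for other numbers. Not every pair correlated positively and the labels do not say what a number marks, so the samples were not treated as paired.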
